A study of Mus musculus with 8 samples.

Results

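The genes described here are 10 that encode cytokines and death ligands of effector T cells, Ifng, Tnf, Il2, Il4, Il13, Il21, Csf2, Lta, Ltb and Fasl, out of 49212 genes in the count tables. They were chosen by name, and each was found in all 8 RNA-seq libraries. The libraries came from effector regulatory T (eTreg) cells of C57BL/6 mice of 2 genotypes. FoxP3YFP-Cre mice served as WT and express a YFP-Cre fusion from the Foxp3 locus. Prdm1fl/flFoxP3YFP-Cre mice served as KO, carry the same fusion, and also 2 loxP-flanked copies of Prdm1, the gene of the transcription factor Blimp1. Cre acts there in every cell that has turned Foxp3 on. All mice carried subcutaneous B16.OVA melanoma, a tumor line that makes the antigen ovalbumin, and received NP-OVA in complete Freund's adjuvant on day 0 and in incomplete Freund's adjuvant on day 7. At tumor volumes of up to 1.5 cm3, CD44+YFP+CD4+CD3+ cells were sorted from spleen and tumor. Mice of both sexes were used at 5 to 10 weeks of age, and whether a library held cells of 1 or several mice was not given in the sources used here. There were 2 libraries each for WT spleen, KO spleen, WT tumor and KO tumor, so that p-values measure the spread between libraries that may not be separate animals.

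These genes carry much of what a helper or cytotoxic T cell says to its neighbours. IFN-γ (Ifng) activates macrophages and raises antigen presentation, TNF (Tnf) drives inflammation, and lymphotoxin α and β (Lta, Ltb) act in lymphoid tissue organization. IL-2 is the T cell growth factor, IL-4 and IL-13 are the type 2 cytokines, IL-21 is the product of follicular helper cells, GM-CSF (Csf2) acts on myeloid cells, and Fas ligand (Fasl) triggers apoptosis of cells that carry Fas. Treg cells are known for low output of IL-2, which Foxp3 represses, and Blimp1 is known as a repressor of Il2 in T cells.

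Each library held between 27834676 and 43903859 counts on genes. Detection was set at a floor of 3 counts, worth 0.0644 to 0.112 CPM (counts scaled to a library of 1000000, with 1 scale for all libraries). Floors and intervals cover counting error only, because amplified reads carried no molecular identifiers. Prdm1 itself was counted over all of its exons, so that a deleted exon need not lower it. It was at 90.7 and 75.1 CPM in the KO tumor libraries against 108.4 and 192.1 in WT tumor, and at 40.7 and 53.4 CPM in KO spleen against 54.1 and 21.0 in WT spleen. The KO tumor libraries stood apart from their label. Cd4 was at 147.8 and 66.2 CPM there, against 383.9 to 1086 CPM in the other 6 libraries, Foxp3 was at 10.2 and 2.99 CPM against 25.5 to 69.7, and Cd8a was at 217.1 and 1214 CPM against 2.33 to 71.8. In bulk libraries such as these, a change in the number of cells of a type and a change in RNA per cell cannot be told apart. The main tumor results of KO mice are therefore also given without one or the other of these libraries.

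The immediate upstream sequence of 5 genes is shown because Ifng, Fasl and Il4 are among the 4 that passed the test between tissues and because Tnf and Lta are neighbours with different patterns. Each run is the 250 bases before the RefSeq start on GRCm38.p6, read 5′ to 3′ on the strand of the gene, and each start lay within 10 bases of the 5′ end that the count tables give. The window of Csf2, which also passed, is not shown because its RefSeq start lay 232 bases from that end, and that of Ltb lay 68 bases from it. Capitals mark, on either strand, the NFAT core GGAAA, the NF-κB form (GGG and CC with any 5 bases between them) and the TATA box letters TATAAA, and neighbouring matches may overlap.
Ifng (chr10:118440796-118441045, plus strand): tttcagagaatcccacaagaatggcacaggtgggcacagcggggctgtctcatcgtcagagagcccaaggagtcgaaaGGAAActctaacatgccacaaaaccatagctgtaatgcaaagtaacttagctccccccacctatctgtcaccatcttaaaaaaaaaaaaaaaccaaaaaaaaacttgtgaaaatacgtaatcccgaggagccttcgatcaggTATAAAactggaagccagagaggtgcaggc
Fasl (chr1:161788496-161788745, minus strand): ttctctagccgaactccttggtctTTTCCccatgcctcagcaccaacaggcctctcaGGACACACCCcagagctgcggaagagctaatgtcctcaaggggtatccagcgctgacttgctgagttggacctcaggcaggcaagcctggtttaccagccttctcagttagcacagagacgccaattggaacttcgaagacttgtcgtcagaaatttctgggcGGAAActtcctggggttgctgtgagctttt
Il4 (chr11:53618666-53618915, minus strand): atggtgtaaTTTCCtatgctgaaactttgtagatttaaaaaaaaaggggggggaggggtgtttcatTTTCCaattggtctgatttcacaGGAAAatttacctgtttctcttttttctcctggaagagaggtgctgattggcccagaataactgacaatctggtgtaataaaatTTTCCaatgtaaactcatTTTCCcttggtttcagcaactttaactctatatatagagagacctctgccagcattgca
Tnf (chr17:35202008-35202257, minus strand): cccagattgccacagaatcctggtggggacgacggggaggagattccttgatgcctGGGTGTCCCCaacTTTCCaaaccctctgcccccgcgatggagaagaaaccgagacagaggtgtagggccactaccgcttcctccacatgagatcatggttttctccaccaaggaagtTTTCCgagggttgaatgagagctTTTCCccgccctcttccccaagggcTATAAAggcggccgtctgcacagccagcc
Lta (chr17:35205352-35205601, minus strand): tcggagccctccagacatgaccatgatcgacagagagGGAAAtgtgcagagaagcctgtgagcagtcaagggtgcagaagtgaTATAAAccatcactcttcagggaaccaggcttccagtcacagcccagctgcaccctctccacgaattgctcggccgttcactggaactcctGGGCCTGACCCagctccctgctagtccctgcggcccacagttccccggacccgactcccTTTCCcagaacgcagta
The Il4 window held 5 NFAT cores and no TATAAA, the Tnf window 3 cores, and the Fasl and Lta windows 2 each. Other forms of the TATA box were not searched for. The Ifng window held a single core and a TATA box that starts at position -30, counted back from the start site, and Tnf had its TATA box at -29. The TATAAA letters of the Lta window start at -167, far from those positions. Of all 27025 promoter windows of this length, 55.6% held GGAAA, 45.4% the NF-κB form and 13% TATAAA, so the first 2 are common letters. The AP-1 letters TGANTCA (6.87% of windows) and the Blimp1 letters AGNGAAAG (7.23%) were in none of the windows of the 10 genes, those of Csf2 and Ltb at their shifted starts included, which says only that these letters are not in this stretch.

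Levels between genes were compared per kilobase of exon (RPKM). In WT spleen, Ltb led by far with 804 ± 212 RPKM (SD, n = 2), which put it at the 99.6th percentile of expressed genes, followed by Lta at 45.7 ± 7.39 and Tnf at 11.8 ± 2.07. Ifng, Il4 and Fasl followed at 8.23, 6.11 and 5.29 RPKM, where Il4 and Fasl overlapped between libraries. Il2, Il21 and Csf2 lay at 0.903, 0.649 and 0.510 RPKM with overlapping libraries. KO spleen began with the same 4 genes in the same order, Ltb, Lta, Tnf and Ifng, although Ifng, Fasl and Il4 overlapped there. In tumor the order was different. Ifng stood second in WT tumor at 44.4 ± 6.80 RPKM, overlapping Tnf at 32.8 ± 27.5, while Lta was at rank 5 with 17.2 ± 2.80. In KO tumor, Ifng (174 ± 185 RPKM), Ltb (124 ± 63.0) and Tnf (106 ± 99.8) could not be ranked, since the libraries of each overlapped those of the next.

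Il13 was too low to read. It had 14 counts over all 8 libraries and at most 3 counts in 7 of them, with 4 counts in KO tumor replicate 1, and it passed the expression filter in no comparison. The upper 95% Poisson limits of its level were 0.0935 to 0.325 CPM, so that it was not detectable at this depth rather than absent. Il2 was readable but low, with 13 to 58 counts per library. Its level was 0.389 and 1.68 CPM in WT spleen, 1.25 and 0.913 in KO spleen, 0.539 and 1.01 in WT tumor and 0.794 and 1.16 in KO tumor. All 4 groups overlapped in Il2, the growth factor gene. Il4 had 6 counts in each of WT tumor replicate 1 and KO tumor replicate 2, with 95% Poisson intervals of 0.0791 to 0.469 and 0.0824 to 0.489 CPM, and Csf2 had 7 counts in WT spleen replicate 1 (0.0843 to 0.432 CPM).

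**Figure D1:**
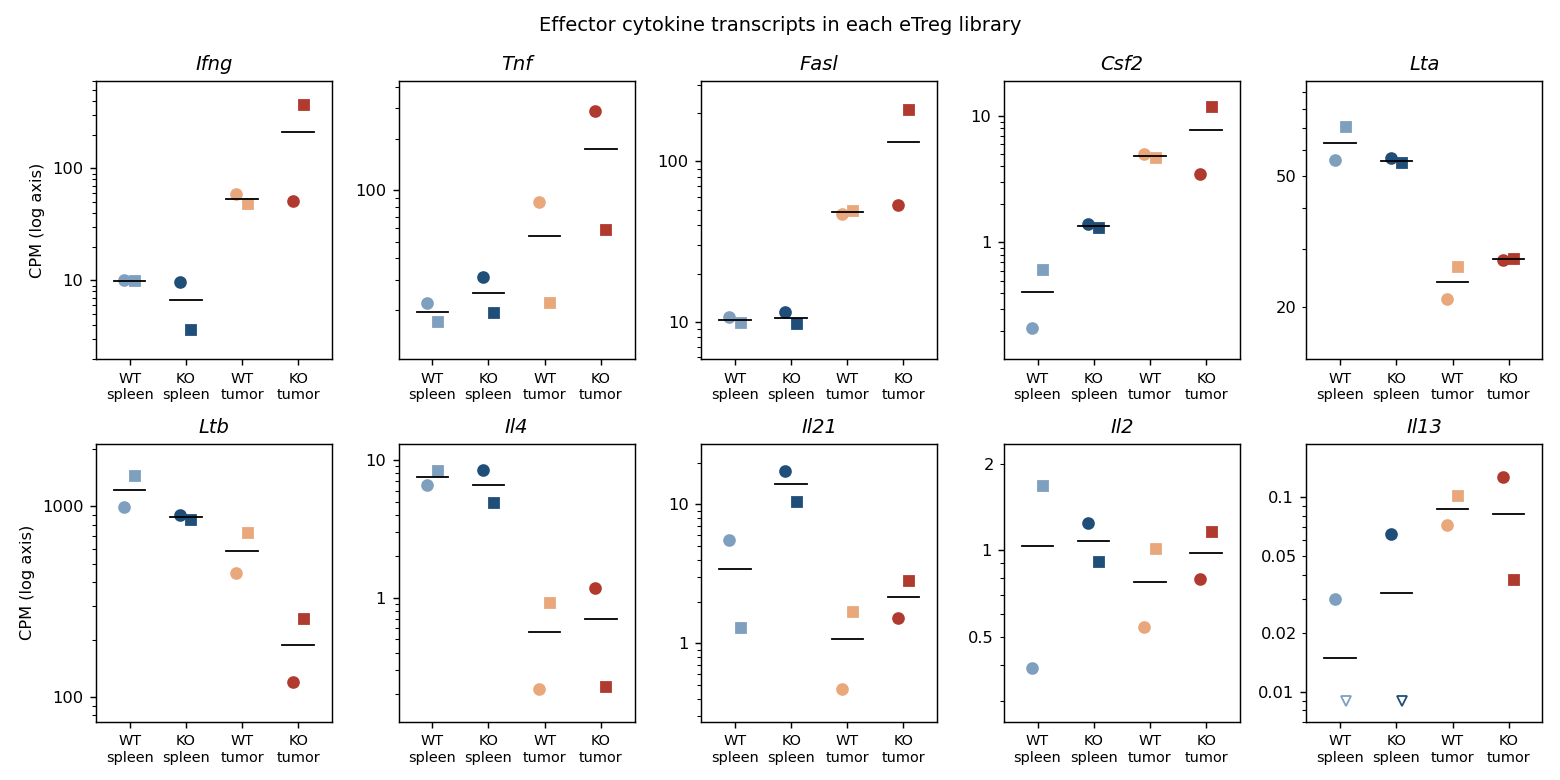
Level of each of the 10 transcripts in each library, in CPM on a log axis whose range differs between panels; circles are replicate 1, squares replicate 2, short lines the mean of both, and open triangles libraries with 0 counts, drawn at the bottom of the panel. Ifng, Fasl and Csf2 lie higher in every tumor library than in any spleen library, Il4, Lta and Ltb lie lower, and the KO tumor pair spreads widely in Ifng, Tnf and Fasl.

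The comparison of tumor with spleen in WT mice asks what these Treg cells express at the tumor site when Prdm1 is intact. The transcripts of IFN-γ, Fas ligand and GM-CSF rose in the tumor and that of IL-4 fell. Ifng was at 59.4 and 47.8 CPM in WT tumor and at 10.1 and 9.81 in WT spleen. The tumor pair thus lay well above the spleen pair, and the log2 fold change was 2.43 (SE 0.46, adjusted p = 0.0135 by the quasi-likelihood test of edgeR), or 5.40-fold. Fasl, the death ligand, was at 47.1 and 49.3 CPM in tumor and at 10.7 and 9.81 in spleen. The replicates were close in both tissues, and Fasl was 4.70-fold higher in tumor (log2 fold change 2.23, SE 0.45, adjusted p = 0.0192 from edgeR's test). Csf2 was at 4.99 and 4.62 CPM in tumor and at 0.210 and 0.607 in spleen. Its tumor libraries agreed while the spleen libraries rested on few counts, and the log2 fold change was 3.55 (SE 0.82, adjusted p = 0.0308 from edgeR's test). Il4 was at 0.216 and 0.911 CPM in tumor and at 6.65 and 8.35 in spleen. It was 13.2-fold lower in tumor, with no overlap (log2 fold change -3.72, SE 0.83, adjusted p = 0.0280 from edgeR's test).

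Of the 9 genes tested, 4 were called, 3 higher and 1 lower, a call being an adjusted p under 0.05 together with a log2 fold change beyond 1 in either direction, where 5.97% of all 16427 genes tested did (4.1% higher and 1.87% lower). DESeq2's Wald test also called 3 higher and 1 lower, with 9.49% of all genes called. Without overlap, 4 of the 9 were higher and 3 lower, against 25.1% and 27% of all genes. Tnf was at 85.6 and 21.9 CPM in tumor and at 21.7 and 16.9 in spleen, so its lower tumor library was only just above the spleen pair (log2 fold change 1.48, adjusted p = 0.203). Lta and Ltb were lower in both tumor libraries than in either spleen library, but neither passed (log2 fold changes -1.41 and -1.06, adjusted p = 0.0951 and 0.259). Il21, the follicular helper cytokine, overlapped at 0.467 and 1.69 CPM in tumor and 5.54 and 1.28 in spleen (log2 fold change -1.65, adjusted p = 0.344). The median of the 9 genes was -0.41 beside -0.04 for all genes, as the 2 directions offset each other. Each of the 4 calls was lost when some library was left out, with adjusted p of 0.0531 to 0.159: Ifng without WT spleen replicate 2 or WT tumor replicate 1, Fasl without these or WT tumor replicate 2, Csf2 without either spleen library, and Il4 without either spleen library or WT tumor replicate 1. Over all fits with a library left out, whether the call was kept or lost, their log2 fold changes lay between 2.28 and 2.62 for Ifng, 2.22 and 2.31 for Fasl, 2.99 and 4.54 for Csf2, and -5.06 and -3.02 for Il4. The CD8 T cell markers Cd8a and Cd8b1 summed to 148.0 and 48.3 CPM in WT tumor and to 24.3 and 30.7 in WT spleen, and their part in these differences was not tested.

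**Figure D2:**
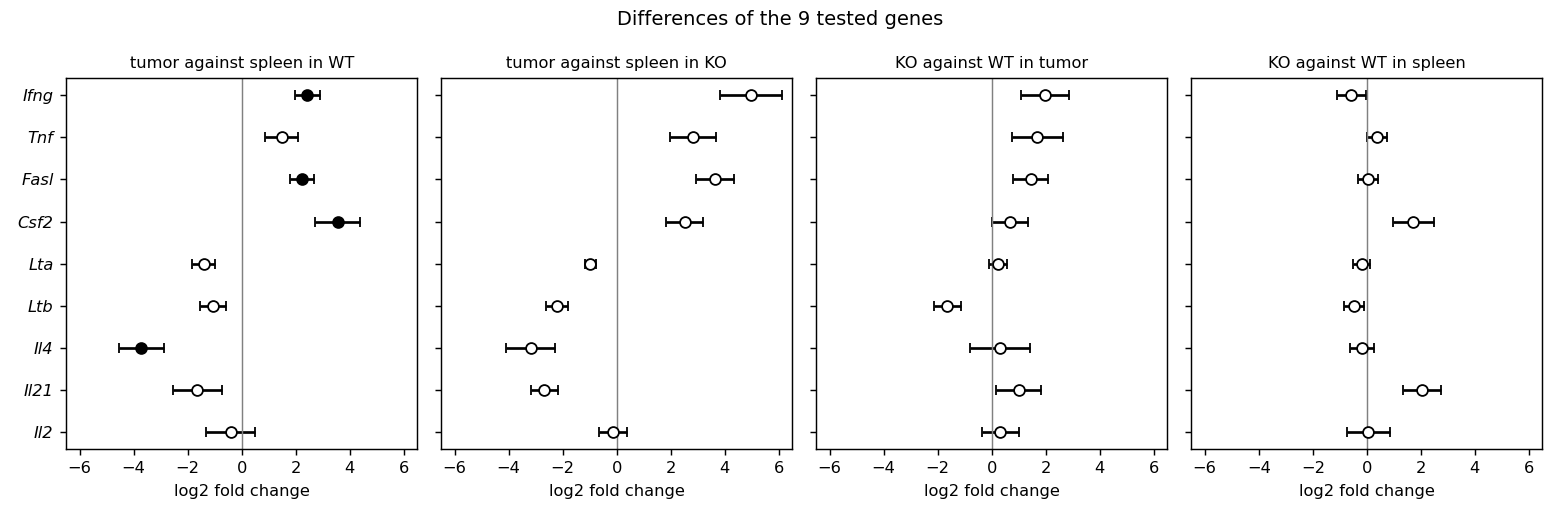
Log2 fold changes of the 9 tested genes in the 4 comparisons, from edgeR fits on 4 libraries each; bars are standard errors and filled points were called, with an adjusted p under 0.05 and a log2 fold change beyond 1 in either direction. Filled points occur for Ifng, Fasl, Csf2 and Il4 in tumor against spleen in WT, and the KO tissue comparison has the same signs with no filled point.

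In KO mice the same comparison of tissues gave larger estimates for Ifng, Fasl, Tnf, Il21 and Ltb, but edgeR called none of the 9 genes and 1.35% of all 16933. At an unadjusted p under 0.05, 4 of the 9 were higher in tumor and 4 lower, against 31% of all genes (17.4% higher and 13.7% lower), and DESeq2's Wald test called 4 higher and 3 lower, against 18.9% of all genes (12.6% higher and 6.32% lower). The groups did not overlap for 4 genes that were higher and 4 that were lower, where 30.6% and 32.9% of all genes did so. The median of the 9 was -0.14 beside 0.01 for all genes. Ifng was at 51.5 and 367.9 CPM in KO tumor and at 9.75 and 3.58 in KO spleen. Both tumor libraries lay above both spleen libraries, but the tumor pair was 7.15-fold apart (log2 fold change 4.97, SE 1.16, adjusted p = 0.0745 from edgeR's test). Without KO tumor replicate 2, the library richest in Cd8a, the log2 fold change of Ifng was 2.99, in a fit with KO tumor replicate 1 as its only tumor library. That library was also rich in Cd8a, at 217.1 CPM against 2.965 and 2.332 in KO spleen. Fasl was at 53.7 and 209.0 CPM in KO tumor and at 11.4 and 9.76 in KO spleen. It too was high in both tumor libraries (log2 fold change 3.63, adjusted p = 0.0643), and without KO tumor replicate 2 the log2 fold change was 2.38. The part of CD8 T cells in these values of Ifng and Fasl was not tested.

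Among the genes that were lower in KO tumor, Il21 was at 1.52 and 2.81 CPM against 17.6 and 10.4 in KO spleen. The tissues were far apart and the replicates close (log2 fold change -2.68, SE 0.51, adjusted p = 0.0626 from edgeR's test). Il4 was at 1.18 and 0.224 CPM against 8.42 and 4.87, a log2 fold change of -3.19 (adjusted p = 0.100), which was -4.87 without tumor replicate 1 and -2.45 without replicate 2. Csf2 was at 3.49 and 11.9 CPM in tumor against 1.40 and 1.29 in spleen, with both tumor libraries higher (log2 fold change 2.51, adjusted p = 0.0966), by 3.13 on the log2 scale without tumor replicate 1 and 1.42 without replicate 2. With KO tumor replicate 1 left out, edgeR called 7 of the 9 genes, where it called 19.7% of all genes, and with KO tumor replicate 2 left out 6, where it called 26.8%. The remaining tumor library is assumed there to vary like the others. With either spleen library left out, 0 of the 9 and 0 of all genes were called.

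Ltb, Tnf and Lta encode 3 members of the TNF family and lie side by side on chromosome 17 of GRCm38. Ltb runs from 35194439 to 35196320 on the plus strand, Tnf from 35199381 to 35202007 and Lta from 35203165 to 35205351 on the minus strand, so that 3061 bases separate Ltb from Tnf and 1158 bases separate Tnf from Lta. Despite this closeness the 3 transcripts had different patterns. Per kilobase, Tnf was at 0.328 and 0.203 of the level of Lta in WT spleen and at 0.463 and 0.295 in KO spleen. In tumor the ratio was 3.43 and 0.697 in WT and 8.77 and 1.75 in KO, higher than in any spleen library. The summed macrophage and monocyte markers had the same order over the tumor libraries, at 2867 and 441.1 CPM in WT and 14520 and 1580 in KO. In spleen their order was the reverse of that of the ratio. The part of macrophages in this ratio was not tested. Ltb, the membrane partner of lymphotoxin α, was 14.2 to 18.7 times the level of Lta in spleen and 19.3 and 24.8 times in WT tumor. In KO tumor that ratio was 3.93 and 8.30, below all of the other 6 libraries. In KO mice the log2 fold change from spleen to tumor was 2.83 for Tnf (SE 0.85), -0.98 for Lta (SE 0.20) and -2.22 for Ltb (SE 0.41), with adjusted p of 0.108, 0.0656 and 0.0614 from edgeR's test. Tnf had 1.21 without KO tumor replicate 1 and 3.57 without replicate 2, Ltb -1.78 and -2.82, and Lta -0.99 and -0.96. Of the genes on either side, Nfkbil1, beyond Lta, had a log2 fold change of -0.57 in KO and -0.26 in WT mice, and Lst1, beyond Ltb, had 2.79 in KO and -1.11 in WT. Within tumor, Lst1 had the order of Tnf, at 117.8 and 15.8 CPM in KO and 27.0 and 9.86 in WT. Within WT spleen it did not, at 9.31 CPM in replicate 1 and 69.9 in replicate 2.

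**Figure D3:**
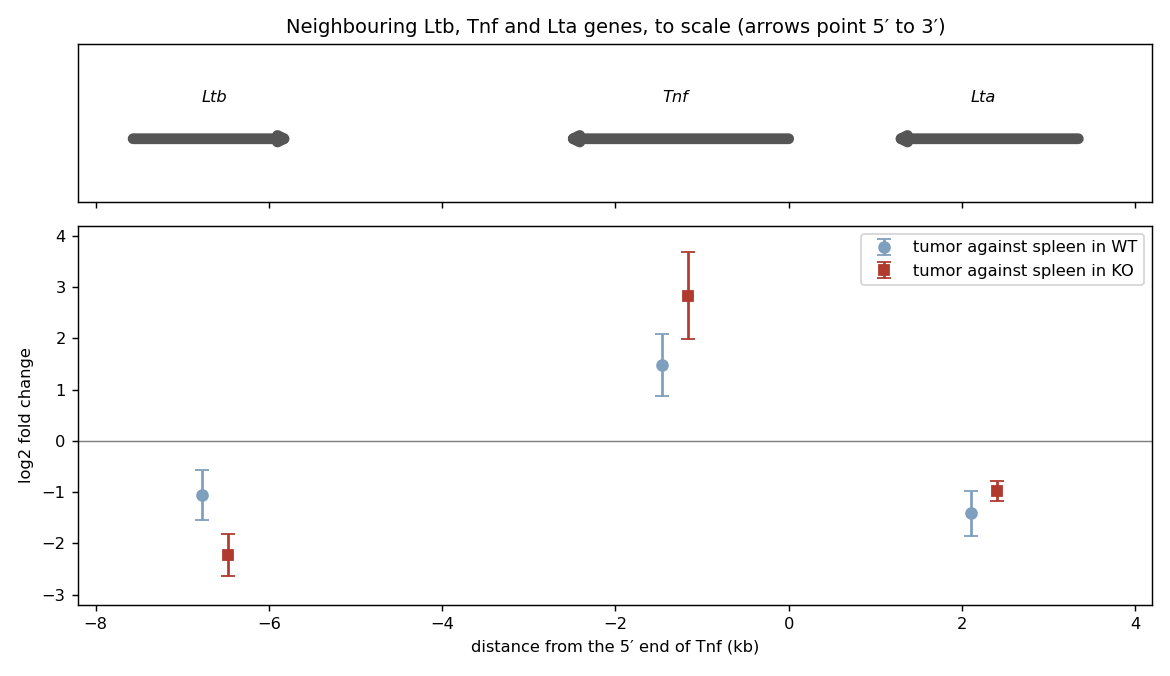
Ltb, Tnf and Lta drawn to scale by distance from the 5′ end of Tnf in kb (top) and, at each gene's midpoint, the log2 fold change of tumor against spleen with its standard error (bottom; circles WT, squares KO, shifted sideways for clarity). Tnf lies above 0 in both genotypes, while Ltb and Lta, on either side of it, lie below 0.

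The comparison of KO with WT in tumor asks which cytokine transcripts depend on Prdm1 in tumor Treg cells. No gene of the 9 passed, nor did any of the 15935 genes tested (0%), while 1 of the 9 and 9.87% of all genes had an unadjusted p under 0.05. DESeq2's Wald test called 0 of the 9 and 4.43% of all genes. Exact permutation of 2 against 2 libraries cannot go below a p of 0.333. The one gene with a small unadjusted p was Ltb, at 120.0 and 255.0 CPM in KO and 446.5 and 721.9 in WT. Both KO libraries were lower, by 1.64 on the log2 scale in the fit (log2 fold change -1.64, SE 0.50, unadjusted p = 0.0194, adjusted p = 0.376 from edgeR's test), and the value ran from -2.30 to -1.20 with each library left out. Ltb is a gene of lymphocytes, and the summed level of 8 CD4 T and Treg cell markers was 1531 and 4112 CPM in KO tumor against 8596 and 11520 in WT tumor. The part of cell makeup in the lower Ltb was not tested.

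For Ifng the 2 KO tumor libraries told different things. Replicate 1, at 51.5 CPM, lay within the WT range of 47.8 to 59.4 CPM, and replicate 2, at 367.9 CPM, lay far above it (log2 fold change 1.97, SE 0.89, adjusted p = 0.573). Without replicate 2 the log2 fold change was -0.08, and without replicate 1 it was 2.78. The T cell gene Cd3e was at 315.6 CPM in KO replicate 1, against 1023 in KO replicate 2 and 927.6 and 1427 in WT tumor. Macrophage and monocyte markers summed to 14520 CPM in KO replicate 1. CPM are shares of all RNA in a library, so the Ifng level per T cell is not given by them. Fasl had the same shape, with 53.7 CPM just above the WT libraries and 209.0 CPM in replicate 2 (log2 fold change 1.44, adjusted p = 0.571), and a log2 fold change of 0.14 without replicate 2. The summed CD8 T cell markers were at 406 CPM in KO replicate 1 and 2222 CPM in KO replicate 2, against 148.0 and 48.3 CPM in WT, and of the γδ T cell markers Tcrg-C2 was at 32.4 and 183.9 CPM in the KO libraries, while Trdc, the delta chain, was at 3.87 and 2.66 CPM there and at 2.19 and 2.70 in WT. In KO replicate 1 the CD8 markers and Fasl were above both WT libraries, while Ifng was not. The NK cell markers were mixed. Their sum of 791.3 CPM in KO replicate 1 and 225.8 in replicate 2 was mostly Tyrobp, also a myeloid gene (733.9 and 125.8 CPM), Ncr1 was at 13.4 and 1.53 CPM, and Klre1 at 22.1 and 90.3. The part of other lymphocytes, and of RNA from cells other than T cells, in the Ifng and Fasl of either KO library was not tested.

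Tnf was split the other way, at 289.5 CPM in KO replicate 1 and 58.2 in replicate 2, against 85.6 and 21.9 CPM in WT. The groups overlapped (log2 fold change 1.69, SE 0.95, adjusted p = 0.667), and without KO replicate 1 the log2 fold change was 0.11. The order of the 4 tumor libraries in Tnf, from KO replicate 1 through WT replicate 1 and KO replicate 2 to WT replicate 2, was also that of the 7 summed macrophage and monocyte markers, at 14520, 2867, 1580 and 441.1 CPM. In spleen the order was the reverse. The same markers summed there to 352.9 and 1503 CPM in WT and to 237.3 and 620.3 in KO. Tnf was at 21.74 and 16.95 CPM in WT spleen and at 31.15 and 19.14 in KO spleen. Macrophages are known to make TNF, and their part in the Tnf values was not tested. Csf2 (3.49 and 11.9 CPM in KO, 4.99 and 4.62 in WT) and Il21 (1.52 and 2.81 CPM in KO, 0.467 and 1.69 in WT) overlapped between genotypes, as did Il4 and Il2. The log2 fold change of Csf2 was -0.48 without KO replicate 2 and that of Il21 was 0.48. Lta was nearly level, at 27.8 and 28 CPM in KO and 21.1 and 26.6 in WT (log2 fold change 0.23, SE 0.32), and higher in KO without overlap. Lta and Fasl higher and Ltb lower were the genes without overlap, where 18% of all genes were higher and 19.4% lower. The log2 fold change was above 0 for 8 of the 9 (median 0.67) and for 53.4% of all genes (median 0.04).

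**Figure D4:**
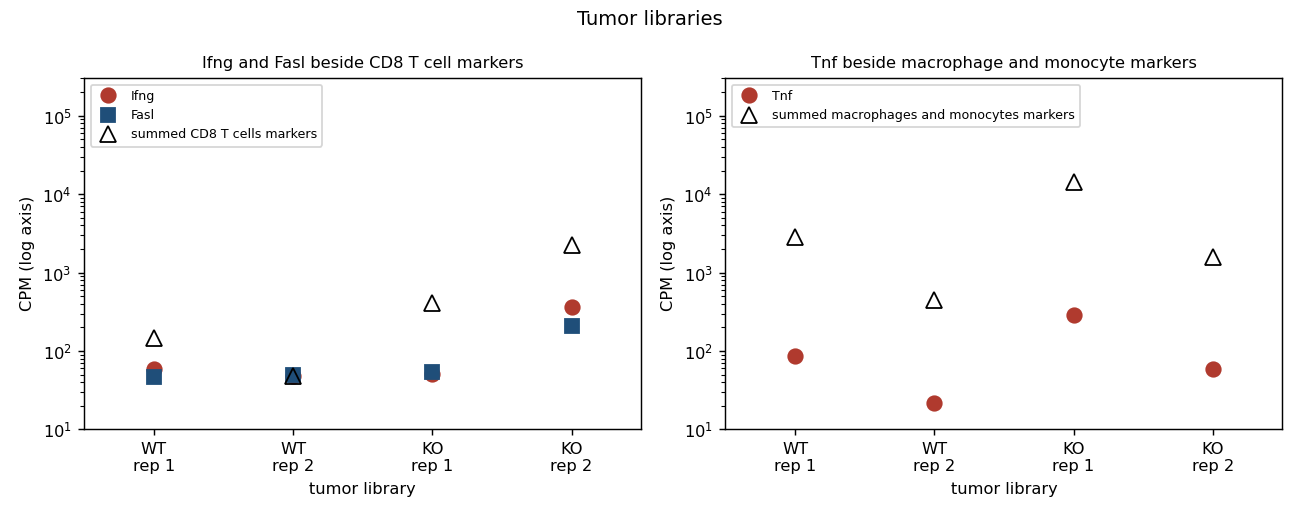
CPM on a log axis in the 4 tumor libraries of Ifng and Fasl beside the sum of Cd8a and Cd8b1 (left) and of Tnf beside the sum of 7 macrophage and monocyte markers (right). Ifng, Fasl and the CD8 sum all peak in KO replicate 2, whereas Tnf and the macrophage sum peak in KO replicate 1 and share 1 order over the 4 libraries.

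In spleen, where Cd4 and Cd8a of the KO libraries lay close to their label, the same question gave differences in other genes. The WT pair differed within itself. Cd4 was at 891.4 CPM in WT replicate 1 and 383.9 in replicate 2. Macrophage and monocyte markers summed there to 352.9 and 1503 CPM, and NK cell markers to 43.4 and 293 CPM. None of the 9 and 0% of the 16583 genes tested passed in edgeR's test, 1 of the 9 and 2.95% of all genes had an unadjusted p under 0.05, and DESeq2 called 0 of the 9 and 0.441% of all genes. Il21 was at 17.6 and 10.4 CPM in KO spleen and at 5.54 and 1.28 in WT spleen. Both KO libraries were higher, and the log2 fold change was 2.03 (SE 0.70, unadjusted p = 0.0242, adjusted p = 0.878 from edgeR's test). It ran from 1.34 without WT replicate 2 to 3.5 without WT replicate 1, where it passed (adjusted p = 0.00170) in a fit that called 3972 of all genes. Csf2 was at 1.40 and 1.29 CPM in KO and at 0.210 and 0.607 in WT, again with no overlap but on 7 and 17 counts in WT (log2 fold change 1.72, SE 0.75, adjusted p = 0.878). Ifng was lower in KO without overlap only by a small margin, at 9.75 and 3.58 CPM against 10.1 and 9.81 (log2 fold change -0.58). Ltb was at 899.4 and 850.6 CPM against 991.3 and 1445, a log2 fold change of -0.48. Tnf, Il2, Il4, Lta and Fasl overlapped, with log2 fold changes of -0.19 to 0.37. The 2 genes higher and 2 lower without overlap compare with 16.4% and 15.7% of all genes, and the median was 0.04 beside -0.02.

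Whether the genotype difference itself differed between tissues was tested as an interaction over all 8 libraries. None of the 9 genes passed, nor did any of 17870 (0%), and none had an unadjusted p under 0.05, while 7.83% of all genes did. DESeq2 called 0 of the 9 and 1.93% of all genes. Ifng came nearest, with an interaction of 2.54 on the log2 scale (SE 1.12, unadjusted p = 0.0506, adjusted p = 0.640), which was 0.53 without KO tumor replicate 2. For Fasl the interaction was 1.40, and 0.12 without KO tumor replicate 2. For Tnf it was 1.31, and -0.27 without KO tumor replicate 1. For Ltb it was -1.16, and for Il21 and Csf2, which were higher in KO spleen, -1.03 and -1.05. The tissue comparisons of WT and KO share no library, and their values for the 9 genes had the same sign in each. That of Il2 changed sign with a library left out, to 1.03 in WT and 0.13 in KO. The share of all genes with the same sign was not computed.

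The genes around this cytokine set were read from lists of pathway genes, with calls by edgeR's test unless another is named. In WT tumor over WT spleen, 4.1% of all genes were called higher and 1.87% lower, and the median of all genes was -0.04. DESeq2 called 9.49% of all genes there, both directions together. Of 10 regulators of type 1 cytokine genes, 2 rose in WT tumor over WT spleen: Il12rb2, the inducible chain of the IL-12 receptor (log2 fold change 4.35, SE 0.62, adjusted p = 0.00408), and Tbx21, which encodes T-bet (3.0, SE 0.53, adjusted p = 0.00967). All 10 had a log2 fold change above 0, with a median of 1.41 beside -0.04 for all genes, and DESeq2 called 4 of them higher. Of 14 activation factors, Fosl2 (3.81), Junb (1.93) and Rel (1.88) rose and none fell, and Fosl2 was also called in KO mice (4.45, adjusted p = 0.0366). Of 10 regulators of mRNA decay, 1 rose, Zc3h12a, the gene of the ribonuclease Regnase-1 (1.89, adjusted p = 0.0326). Of 17 other T cell cytokines and TNF family ligands tested, 4 rose and 1 fell in WT tumor, namely Areg (4.57), Il10 (2.87), Tnfsf9 (2.81) and Il5, which rose, and Tnfsf14, the ligand LIGHT (-2.76), which fell. Il5 had 1 and 0 counts in WT spleen and 14 and 24 in WT tumor, so no fold is given for it. Of the 7 regulators of type 2 and follicular cytokine genes, edgeR called 0 and DESeq2 1 there, and Gata3 had a log2 fold change of 0.53.

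On the receiving side, edgeR called 0 of the 16 receptor genes tested in each comparison, while DESeq2 called 4 higher in WT tumor over WT spleen, 6 higher and 1 lower in KO tumor over KO spleen, 1 higher and 1 lower in KO against WT tumor, and 1 lower in the interaction. Of all genes, DESeq2 called 9.49%, 18.9%, 4.43% and 1.93% in these 4 tests, in this order. In KO tumor replicates 1 and 2, Csf2rb was at 350.1 and 40.7 CPM and Csf2ra at 129 and 17.3. Il2rb was split the other way, at 730.7 and 2044 CPM. In KO spleen, Csf2rb was at 3.07 and 7.53 CPM and Csf2ra at 1.98 and 3.93. Macrophage and monocyte markers summed to 14520 and 1580 CPM in KO tumor. The part of cell makeup in the receptor values was not tested. Ifngr1, which binds IFN-γ, had the smallest p in WT tumor over WT spleen (log2 fold change 1.91, adjusted p = 0.0538). Among 13 genes induced by IFN-γ, Irf8 rose in tumor in WT (1.87, adjusted p = 0.0413) and in KO mice (3.45, adjusted p = 0.0332) by edgeR's test, which called no other gene of the list. DESeq2 called 4 higher and 1 lower in WT and 6 higher in KO mice. In the tumor comparison of KO with WT, the list had a median of 0.43 beside 0.04 for all genes, with Irf8 at 0.83, Cxcl9 at 3.15 and Igtp at -1.05 (adjusted p = 0.505, 0.569 and 0.438), and Cxcl9 was at 0.46 without KO tumor replicate 1. Between KO and WT, edgeR called no gene of these lists in either tissue. In tumor, DESeq2 called 1 type 1 regulator higher, 3 type 2 and follicular regulators lower, 4 decay regulators higher, and 1 other cytokine higher and 1 lower, and in spleen it called 1 gene of the lists, Il10, lower. Of all genes it called 4.43% in tumor and 0.441% in spleen. By edgeR's test, small p in tumor belonged to the receptor chain Il2ra (log2 fold change -2.75, adjusted p = 0.177), to Eomes, a regulator of cytotoxic genes (4.25, adjusted p = 0.228, and 3.13 without KO tumor replicate 2), to Gata3, the type 2 regulator (-2.72, adjusted p = 0.252), to Areg (-3.08, adjusted p = 0.179) and to the decay factor Khsrp (2.18, adjusted p = 0.177). Il2ra is itself in the list of CD4 T and Treg cell markers, which summed to 1531 and 4112 CPM in KO tumor against 8596 and 11520 in WT tumor. Eomes was at 18.5 and 60.9 CPM in KO tumor replicates 1 and 2, where Cd8a was at 217.1 and 1214. The part of cell makeup in the tumor values of these lists was not tested. In KO spleen, the Il10 libraries stood at 0.773 and 0.938 CPM, far below 14.3 and 14.0 in WT spleen (log2 fold change -4.05, adjusted p = 0.140), Il18r1 had a log2 fold change of 1.46 and Il12rb2 of 2.09, and the follicular regulators Bcl6 and Ascl2, set beside Il21, had 1.05 and 1.28 (adjusted p = 0.878 for all 4). Bcl6 was at 53.75 and 50.07 CPM in KO spleen against 38.75 and 11.35 in WT spleen, the last in replicate 2.

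Over the 8 libraries, the genes most like each cytokine were taken by the root mean square difference of centred log2 CPM among 13639 genes. Nearest to Ifng were Nkg7, a gene of cytotoxic granules (0.54), and Fasl (0.58), and nearest to Fasl were Serpinb1b (0.27), Sema7a (0.31) and Serpinb9 (0.38). Sema7a was also nearest to Csf2 (0.32). Nearest to Tnf were Cdc42ep4 (0.26) and Osm, the cytokine oncostatin M (0.30), which was at 354.2 and 74.7 CPM in KO tumor and 77.0 and 16.9 in WT tumor. The profile of Ltb was nearest to receptor segments of αβ T cells, Trbv13-3 (0.21) and Trav6-3 (0.22), and that of Lta, which varied least of the 8 genes ranked (SD 0.66 on the log2 scale), to Jpx (0.13). These are 8 points that share 2 tissues and the marker differences given above.

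The neighbours of the cytokine genes on their chromosomes did not move with them as a rule. Il4 and Il13 lie 12655 bases apart on chromosome 11, between Kif3a and Rad50. In WT tumor against WT spleen, where Il4 fell, Kif3a and Rad50 had log2 fold changes of 0.71 and -0.24, and Il13 was unreadable. Il2 and Il21 lie 96800 bases apart on chromosome 3. Il21 had a log2 fold change of 2.03 in KO spleen against WT spleen while that of Il2 was 0.06. Csf2 lies 15636 bases from Il3, which had 2 and 4 counts in KO tumor and none in the other 6 libraries. P4ha2, on the far side of Csf2 by 115606 bases, rose in WT tumor (log2 fold change 6.09, adjusted p = 0.00508), a size that rests on 2 and 6 counts in WT spleen. It was at 12.5 and 6.28 CPM in WT tumor and at 18.6 and 4.38 in KO tumor. The summed melanoma markers had the same order, at 2078 and 1140 CPM in WT and 3201 and 830.1 in KO. The part of melanoma cells in P4ha2 was not tested. Suco, next to Fasl, and Dyrk2, next to Ifng, had values of 0.31 and -0.56 in the same comparison.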

How the data were processed

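The authors trimmed reads with Trimmomatic 0.36, aligned them to GRCm38 with STAR 2.5.2b, counted unique exon reads with featureCounts (Subread 1.5.2) and deposited raw counts per gene, which were used here. Whether counting used strand was not given in the sources used here; genes overlapping exons of Il21 and Csf2 held 0 and 2 counts, and Mir6973a, within Ltb, 109. A deposited table of normalized counts was not used. Each comparison was fitted on its 4 libraries with edgeR 4.0.16 (R 4.3.3, limma 3.58.1) by the quasi-likelihood test, with filterByExpr and TMM normalization. Calls needed a Benjamini-Hochberg adjusted p under 0.05 over all genes and a log2 fold change beyond 1 in either direction. The standard error is the log2 fold change divided by the square root of F. CPM use TMM factors over 8 libraries, and RPKM divide them by exon length. Alternatives were DESeq2 1.42.0 (the Wald test, which the study used), its size factors, no filter, a replicate block, all 8 libraries in 1 fit and each library left out. Scripts were tested on simulated data. Replicates differed beyond sampling noise, with chi-square values of 37.2 to 344 per degree of freedom.

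Members and lists were chosen with earlier results of these data known. All 10 members were named in each comparison. Of each list, called genes were named up to 4 by adjusted p, or else up to 3 by unadjusted p, with the 3 nearest profiles (genes of at least 1 CPM on average, after an offset of 0.25 CPM) and the nearest gene on each side; not every gene so chosen is printed, and Gata3 in WT tissues, Il5, Osm and single marker genes were named after their values were seen. Promoter windows came from RefSeq, in which all 10 genes matched by symbol, 8 of them within 10 bases of the tables' 5′ end.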

Additional observations from a re-analysis of the deposited data

How the results depend on the processing

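With 2 libraries per group, counts of called genes moved far while fold changes of the 9 tested genes mostly kept their sign; the cause of the changes in count was not tested. Of the 432 values of these genes under alternatives, 359 kept direction and call, 39 gained a call, 13 lost one and 21 changed sign, each of the last with a library left out. Called among the 9: in KO against WT tumor 0, but 2 with no filter (Ifng, Ltb) and 2 with the replicate block (Tnf, Ltb); in KO against WT spleen 0, but 1 with no filter and 1 with the block (Il21) and 0 to 1 leaving out a library; in tumor against spleen in WT 4, but 2 with all 8 libraries and 0 to 3 leaving one out; in KO 0, but 7 with no filter, 7 with DESeq2, 3 with all 8 libraries and 0 to 7 leaving one out; in the interaction 0, but 1 with no filter (Ifng). Over all genes, KO against WT tumor gave 0 calls, but 1072 with no filter, 744 with DESeq2, 728 with the block and 135 with all 8 libraries; KO against WT spleen 0, but 167, 75 and 101 with the first 3 of these and 21 to 3972 leaving one out (3972 without WT spleen replicate 1); tumor against spleen in WT 981, but 1922 with no filter, 1777 with DESeq2 and 213 to 1401 leaving one out (213 without WT spleen replicate 2, 513 without WT tumor replicate 1); in KO 228, but 3183, 3775 and, with all 8 libraries, 1743, and 0 to 4958 leaving one out; the interaction 0, but 752 with no filter and 309 with DESeq2.

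Leaving out a library, the log2 fold change in KO against WT tumor ran from -0.08 to 2.78 for Ifng, -0.06 to 0.84 for Il2, -1.32 to 1.67 for Il4 and -0.48 to 1.3 for Csf2; in KO against WT spleen from -0.57 to 1.47 for Il2, -0.60 to 0.17 for Il4 and -0.05 to 0.17 for Fasl; in tumor against spleen for Il2 from -1.09 to 1.03 in WT and -0.40 to 0.13 in KO; and in the interaction from -0.27 to 2.62 for Tnf, -1.14 to 0.96 for Il2, -1.16 to 1.85 for Il4 and -2.44 to 0.16 for Il21. Hnrnpd ran from -0.99 to 0.09 and Ltbr from -1.35 to 0.09 in KO against WT spleen, and Gata3 from -0.12 to 1.02 in tumor against spleen in WT. Nothing in the labels pairs the replicate numbers, and deviations of same-numbered libraries correlated from -0.309 to 0.306 between groups, so the block gives no paired result. Depth limits Il13, Il2, Il4 in tumor and Csf2 in WT spleen.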

Other observations

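The RNA of the 10 genes together took 0.107% to 0.155% of all counts in the 4 spleen libraries and 0.0490% to 0.0897% in the 4 tumor libraries, a sum that Ltb dominated. Per kilobase, the ratio of Ifng to Il4 was 0.747 to 1.54 in the 4 spleen libraries and 44.5 to 1670 in the 4 tumor libraries, although the upper end rests on 6 counts of Il4 in KO tumor replicate 2. Within the tumor libraries that ratio was 280.0 and 53.4 in WT and 44.5 and 1670 in KO, so that the genotypes overlapped.

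Melanoma transcripts were present in all tumor libraries, where 6 markers summed to between 830.1 and 3201 CPM, against 3.69 to 6.74 CPM in spleen. Of the 6 mast cell and basophil markers, which mark other cells that make IL-4, Fcer1a and Ms4a2 had no counts in any library. The list summed to 4.1 to 7.83 CPM in spleen, where Il4 was at 4.87 to 8.42 CPM. In tumor the list summed to 16.5 and 10.1 CPM in WT and to 53.7 and 38.8 in KO. The part of these cells in the Il4 values was not tested. B cell markers summed to at most 88.1 CPM in any library, neutrophil markers to at most 323.2 and fibroblast markers to at most 9.86. Genes with a like share of G and C in their richest 200 nt stretch had medians of -0.04 to 0.07 in KO against WT tumor (96.2% of genes matched). These medians were -0.31 to 0.11 in KO against WT spleen. In tumor against spleen they were -0.39 to 0.17 in WT and -0.14 to 0.08 in KO. The part of base makeup in the differences was not tested.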
